A study of Mus musculus with 12 samples.

Results

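The transcriptome of PreMegE cells, the bone marrow progenitors that give rise to platelet-forming megakaryocytes and to red blood cells, was compared with that of haematopoietic stem cells (HSC). The comparison rests on 7 of the 12 Affymetrix arrays of the series, 4 of PreMegE cells (replicates 1 to 4) and 3 of HSC (replicates 1 to 3), and arrays were chosen by the group named in their titles. HSC had been sorted as lineage-, cKit+, Sca1+, CD150+, Flk2- cells. The PreMegE gate was lineage- and cKit+ like that of HSC, but Sca1-, and took CD150+ cells that lacked CD105 and CD41. Both populations came from bone marrow of C57Bl/6 mice aged 10 to 12 weeks, and the labels name no treatment and no modified allele. The other arrays of the series held 3 samples of multipotent progenitors (MPP; lineage-, cKit+, Sca1+, CD150-, Flk2+) and 2 of splenic CD4+ T cells. MPP values are given beside those of HSC and PreMegE cells where they show where a level lies. The authors sorted HSC and MPP themselves and took the PreMegE arrays from a previous study, so study and cell type cannot be told apart in any difference described here. Whether the replicates are separate animals is not in the labels, and the p-values then measure the spread between these samples, which may be technical. Sex-linked transcripts set HSC replicate 1 apart from HSC replicates 2 and 3, with values given below.

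HSC sustain blood formation over a lifetime and divide rarely. In the classical scheme they give rise to multipotent progenitors and then to progenitors with fewer fates, of which PreMegE cells stand at the head of the megakaryocyte and erythroid branch. Megakaryocyte and erythroid fates depend on GATA1, its partner FOG1 (Zfpm1) and the SCL (Tal1) complex, with KLF1 driving red cell genes. HSC identity depends on factors such as MECOM, HLF and MEIS1.

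Levels are log2 intensities of the probe set that represents a gene, and differences are log2 PreMegE minus HSC ± SE. They were tested with limma over 18193 genes on all 12 arrays, and genes with an adjusted p under 0.05 count as called. Lower quartiles of gene means were 3.35 in HSC and 3.32 in PreMegE cells. A level under them may not lie above background, and a difference from such a level is not an exact fold.

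The genes chosen to mark the 2 populations set them apart on every array. They were chosen with earlier results of these data known, so their separation and p-values are no independent evidence. Klf1, the erythroid Krüppel-like factor, had levels of 7.65, 7.81 and 8.03 on the HSC arrays and of 11.03, 11.19, 11.79 and 11.45 on the PreMegE arrays, a difference of 3.54 ± 0.19 (adjusted p = 4.18e-09). Mecom, which encodes a zinc finger factor required by stem cells, went the other way, from 9.76, 9.48 and 9.92 on the HSC arrays to 4.35, 3.61, 4.65 and 4.09 on the PreMegE arrays (-5.55 ± 0.21, adjusted p = 1.05e-10). Procr, the endothelial protein C receptor and a stem cell surface marker, had levels of 8.38, 8.51 and 8.62 in HSC. In PreMegE cells Procr lay at 2.99, 3.26, 2.84 and 2.87, at or under the lower quartile of genes (-5.51 ± 0.14, adjusted p = 3.23e-12). The groups did not overlap for any of these 3 genes, as was the case for 31.6% of all genes (5749 of 18193). A second, dimmer probe set of Mecom differed by -0.14 (adjusted p = 0.683), so the fall in Mecom rests on its brightest probe set.

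Among surface antigen genes, Cd34 and Cd48 were not gated on, and those of the gated antigens followed the gates in part. Cd34, a progenitor surface glycoprotein that neither label gates on, had levels of 10.12, 9.98 and 10.02 in HSC and 5.89, 5.35, 5.76 and 5.16 in PreMegE cells, a difference of -4.50 ± 0.17 (adjusted p = 9.96e-11). Cd48, which purified HSC are known to lack, was at 5.26, 4.53 and 5.17 in HSC and at 7.40, 8.18, 8.28 and 8.76 in PreMegE cells (3.17 ± 0.25, adjusted p = 2.19e-07). Itga2b, which encodes CD41, the integrin by which PreMegE cells were gated out, fell from 10.63, 10.45 and 10.53 to 8.14, 8.32, 8.82 and 8.52 (-2.09 ± 0.17, adjusted p = 2.04e-07). The genes for the antigens that both gates select, Kit (-0.56 ± 0.25, adjusted p = 0.119) and Slamf1 for CD150 (-0.01 ± 0.15, adjusted p = 0.986), were not called, nor was Eng for CD105 (0.19 ± 0.22, adjusted p = 0.604). The next brightest probe sets of Kit (1.03, adjusted p = 5.17e-04) and Slamf1 (0.79, adjusted p = 0.0454) were called higher, and Kit was called lower on its brightest probe set without PreMegE replicate 3 (-0.70, adjusted p = 0.0484). Ly6a for Sca1 was not analysed here.

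Upstream sequences of Klf1 and of 2 erythroid surface genes that rose, Epor and Kel, are shown because their 250 bases before the start hold a match to AGATAA or TGATAA, the letters that GATA factors recognise. They are RefSeq sequences of build GRCm38.p6, printed 5′ to 3′ on the gene's strand with each match on either strand in capitals. The Klf1 window is chr8:84901732-84901981 on the plus strand, the Epor window chr9:21963577-21963826 on the minus strand and the Kel window chr6:41704326-41704575 on the minus strand. They were chosen after the matches had been seen.
Klf1: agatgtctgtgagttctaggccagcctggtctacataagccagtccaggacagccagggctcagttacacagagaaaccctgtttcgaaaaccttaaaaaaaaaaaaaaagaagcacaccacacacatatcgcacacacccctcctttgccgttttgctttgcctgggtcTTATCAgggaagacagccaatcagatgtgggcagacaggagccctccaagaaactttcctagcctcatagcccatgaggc
Epor: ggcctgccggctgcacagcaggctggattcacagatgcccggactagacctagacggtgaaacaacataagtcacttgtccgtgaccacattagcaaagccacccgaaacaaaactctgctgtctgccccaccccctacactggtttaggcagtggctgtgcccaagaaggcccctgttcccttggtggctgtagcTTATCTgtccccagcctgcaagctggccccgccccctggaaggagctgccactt
Kel: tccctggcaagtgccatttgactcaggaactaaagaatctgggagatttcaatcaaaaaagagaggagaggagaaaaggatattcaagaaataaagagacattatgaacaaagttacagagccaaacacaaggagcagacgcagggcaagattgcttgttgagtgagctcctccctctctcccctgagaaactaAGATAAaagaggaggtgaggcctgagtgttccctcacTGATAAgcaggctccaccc
The match of Klf1 began 80 bases before the start, that of Epor 54 bases before it, and those of Kel 56 and 19 bases before it. AGATAA stood in 7.40% of the 18109 promoter windows of 14452 genes measured. Genes called at least 4-fold higher in PreMegE cells had 111 windows, from 90 genes, of which 6 (5.41%) held AGATAA. For TGATAA the shares were 4.99% of all windows and 9.91% (11 windows) of these. In the 338 windows of 243 genes called at least 4-fold lower the shares were 7.40% for AGATAA and 4.73% for TGATAA. These are shares of letters in a window. Neither a match nor its absence shows whether a factor binds, which was not measured.

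The arrays of a group resembled each other more than those of the other group, with correlations across genes of 0.985 to 0.988 among HSC, 0.984 to 0.992 among PreMegE cells and 0.945 to 0.961 between them. RNA measures moved with the groups. The 3' control probe set of beta-actin exceeded the 5' one by 2.42 to 2.77 on the log2 scale on HSC arrays and by 3.49 to 4.65 on PreMegE arrays, while the ranges for Gapdh overlapped (3.86 to 4.14 and 3.12 to 4.39). HSC replicates also differed among themselves. The X-inactivation transcript Xist was at 12.04, 2.45 and 2.59 on the 3 HSC arrays and between 11.16 and 12.44 on all PreMegE arrays, and Eif2s3y and Kdm5d, which lie on the Y chromosome, were high on HSC replicates 2 and 3 (7.46 and 8.47 for Eif2s3y, 6.02 and 5.68 for Kdm5d) and between 2.32 and 2.76 on the other 5 arrays. HSC replicate 2 had the highest level of the 7 arrays for the neutrophil granule genes Ngp (11.01) and Camp (9.13). The part of RNA quality, sex and neutrophil transcripts in the differences described here was not tested.

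Between the 2 populations 5255 of 18193 genes were called, 28.9% of all, with 2167 higher (11.9%) and 3088 lower (17.0%) in PreMegE cells. Of these, 765 were at least 2-fold higher and 1330 at least 2-fold lower. At 4-fold the numbers were 111 and 298, and at 16-fold 6 and 31. The numbers at 4-fold include the sex-linked genes Xist (a difference of 6.10), Eif2s3y (-3.58) and Kdm5d (-2.17), for which the HSC arrays differed among themselves. The balance depended on the scaling of the arrays. As deposited, 41.2% of calls were higher in PreMegE cells, against 50.8% after quantile normalisation and 46.2% after cyclic loess normalisation. The median SE of a difference was 0.17 and the median difference over all genes -0.01. Against MPP, which share the PreMegE arrays of this comparison, 6004 genes were called (33.0%).

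**Figure D1:**
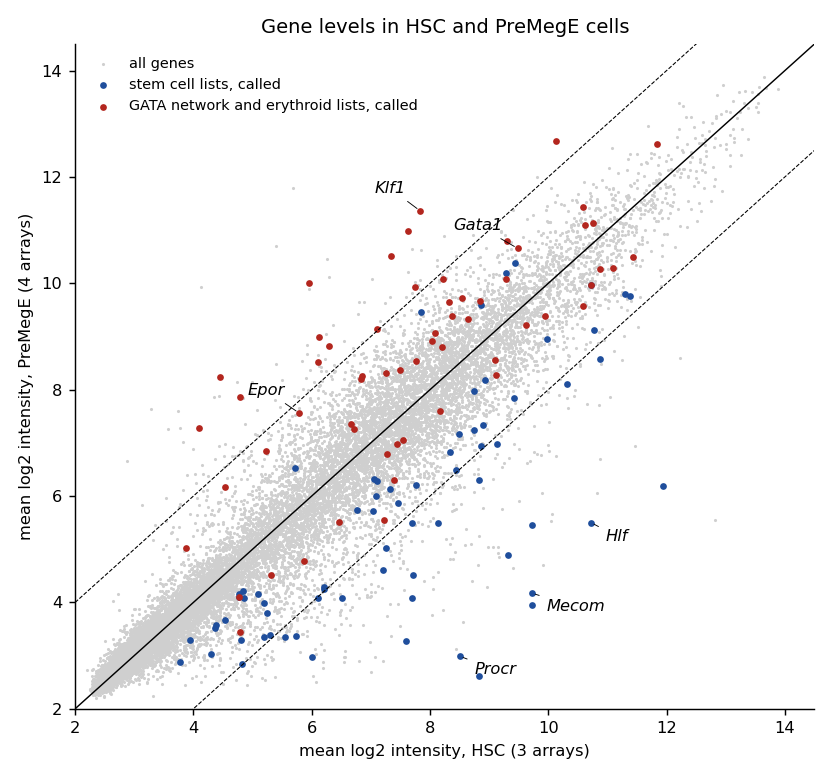
Mean log2 intensity of each of the 18193 genes in HSC (x axis, 3 arrays) and in PreMegE cells (y axis, 4 arrays). Grey points are all genes, blue points called genes of the stem cell lists and red points called genes of the GATA network and erythroid lists; the solid line marks equal levels and the dashed lines a 4-fold difference. Mecom, Hlf and Procr lie far under the line and Klf1, Gata1 and Epor over it.

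Transcription factors of stem cells were lower in PreMegE cells as a group. Of 31 measured regulators 20 fell and 2 rose, where 17.0% of all genes fell and 11.9% rose, and their median difference was -0.81. Hlf, a PAR leucine zipper factor, had levels of 10.76, 10.75 and 10.65 in HSC and 5.55, 5.26, 5.93 and 5.27 in PreMegE cells (-5.22 ± 0.16, adjusted p = 1.54e-11). The PreMegE arrays all lay more than 4 log2 units under the lowest HSC array for Hlf. Meis1, a homeobox partner of HOX proteins, stayed well expressed in PreMegE cells at 9.54, 9.47, 10.17 and 9.90, below its 11.18, 11.44 and 11.54 in HSC (-1.62 ± 0.19, adjusted p = 9.24e-06). Prdm16, a MECOM relative, fell by 2.65 ± 0.23 on the log2 scale (adjusted p = 4.19e-07) and Mllt3, a chromatin reader of the super elongation complex, by 1.95 ± 0.21 (adjusted p = 4.46e-06). Mycn fell from 10.44, 10.88 and 11.01 to 8.86, 9.01, 9.73 and 8.87 (-1.66 ± 0.21, adjusted p = 1.83e-05). Its relative Myc, at 8.94, 8.43 and 8.78 in HSC and 9.43, 9.50, 9.94 and 9.45 in PreMegE cells, rose (0.87 ± 0.16, adjusted p = 7.41e-04). Erg, an ETS factor, was not called (-0.39 ± 0.24, adjusted p = 0.271). The next brightest probe sets of Prdm16 (-0.59, adjusted p = 0.0945) and Mycn (-0.24, adjusted p = 0.383) were not called.

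Receptors and adhesion molecules by which stem cells are sorted or held in their niche had a median of -0.67. Of 43 measured genes 2 rose (11.9% of all genes) and 21 fell (17.0% of all genes). Besides Procr they included Fgd5, a guanine nucleotide exchange factor used to mark HSC, which went from 7.41, 7.64 and 7.73 in HSC to 3.41, 3.30, 2.97 and 3.42 in PreMegE cells (-4.32 ± 0.16, adjusted p = 9.96e-11). All 4 PreMegE arrays were close to the lower quartile of genes for it. The endothelial adhesion molecule Esam fell by 3.19 ± 0.16 (adjusted p = 1.44e-09), the adhesion receptor Adgrl4 by 4.28 ± 0.17 (adjusted p = 1.43e-10) and the angiopoietin receptor Tie1 by 2.02 ± 0.17 (adjusted p = 4.69e-07). Angpt1, a niche-regulating ligand, fell from 11.28, 11.32 and 11.27 to 9.47, 9.69, 9.77 and 10.24 (-1.50 ± 0.16, adjusted p = 4.82e-06). On its next brightest probe set Angpt1 was not called (0.43, adjusted p = 0.0932). The CXCL12 receptor Cxcr4 was not called either (0.43 ± 0.20, adjusted p = 0.123).

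Of 36 measured genes that are otherwise tied to HSC, 24 fell and 1 rose, with a median of -1.26. Of all genes 17.0% fell and 11.9% rose. Tgm2, a transglutaminase, had levels of 12.17, 11.90 and 11.74 in HSC and 5.90, 6.16, 6.61 and 6.04 in PreMegE cells (-5.76 ± 0.28, adjusted p = 1.33e-09). Its MPP level of 9.83 ± 0.03 (SD, n = 3) lay between those groups. Fscn1, the actin-bundling fascin, went from 8.91, 9.31 and 8.28 to 2.69, 2.78, 2.76 and 2.24 (-6.22 ± 0.29, adjusted p = 8.85e-10), a PreMegE level under the lower quartile. Mmrn1, a multimerin of platelet granules, went from 9.50, 9.64 and 10.02 to 4.29, 3.58, 4.0 and 3.92 (-5.77 ± 0.17, adjusted p = 1.43e-11). The next brightest probe set of Mmrn1 differed by -0.02 (adjusted p = 0.958) and that of Fscn1 by -0.89 (adjusted p = 4.32e-04).

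**Figure D2:**
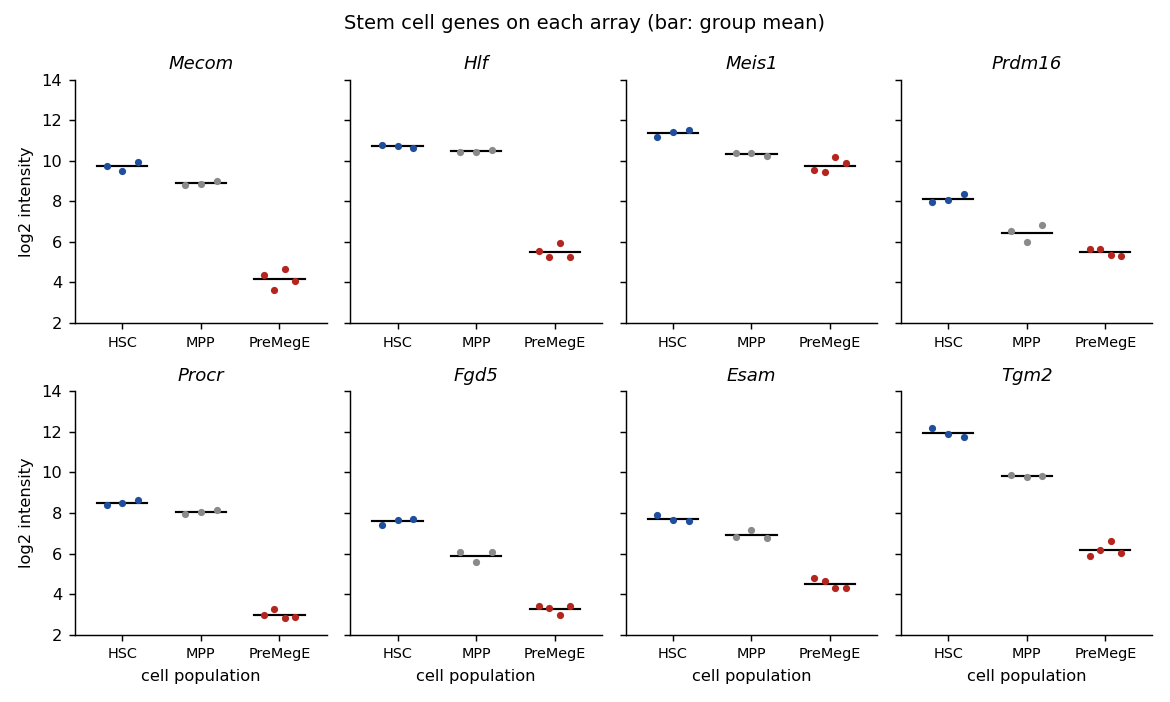
Log2 intensity (y axis) on each HSC, MPP and PreMegE array (points, left to right within each panel) for 8 genes of the stem cell lists, with the group mean as a bar. In every panel the 4 PreMegE points lie under the 3 HSC points, and Hlf and Procr remain near their HSC level in MPP.

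Imprinted genes and HOX genes moved in part, beside 17.0% of all genes that fell and 11.9% that rose. Of 28 measured imprinted genes 8 fell and 1 rose, with a median of -0.02 whose sign turned under quantile (0.04) and cyclic loess (0.02) normalisation. Among those that fell was Cdkn1c, the CDK inhibitor p57, at 6.93, 5.88 and 6.82 in HSC and 2.95, 2.81, 2.90 and 3.22 in PreMegE cells (-3.57 ± 0.21, adjusted p = 8.50e-09). Ndn, the growth suppressor necdin, went from 9.05, 9.13 and 9.34 to 4.60, 4.74, 4.99 and 5.11 (-4.31 ± 0.15, adjusted p = 6.85e-11). The noncoding RNA Meg3 fell by 2.82 ± 0.25 (adjusted p = 6.65e-07), but its next brightest probe set differed by 0.09 (adjusted p = 0.809). Grb10, a growth factor receptor adaptor, was not called (0.32 ± 0.15, adjusted p = 0.141), though its level of 7.73 ± 0.15 (SD, n = 3) in MPP was lower than in either population (PreMegE minus MPP 2.41, adjusted p = 9.70e-09). Of 29 measured HOX genes and cofactors 9 fell and 1 rose. Hoxa9, which supports progenitor expansion, went from 11.69, 11.27 and 11.71 to 9.33, 9.81, 10.05 and 9.77 (-1.82 ± 0.18, adjusted p = 1.89e-06), and Hoxb5, reported as an HSC marker, from 5.13, 5.05 and 4.30 to 3.10, 2.50, 2.80 and 2.99 (-1.98 ± 0.21, adjusted p = 3.81e-06). Hoxb4 was not called (-0.10 ± 0.20, adjusted p = 0.778). The next brightest probe set of Hoxa9 differed by -0.28 (adjusted p = 0.501).

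The largest fall of all belonged to Fos, a subunit of the AP-1 factor that cells induce within minutes of a stimulus. Its levels were 12.88, 12.76 and 12.79 on the HSC arrays, 4.54, 6.19, 5.92 and 5.55 on the PreMegE arrays and 13.18 ± 0.09 (SD, n = 3) in MPP, and PreMegE minus HSC was -7.26 ± 0.36 (adjusted p = 1.25e-09). Jun, its dimer partner, had levels of 10.50, 9.77 and 9.45 in HSC and 4.93, 4.52, 4.71 and 4.62 in PreMegE cells (-5.21 ± 0.23, adjusted p = 3.86e-10). Dusp1, a phosphatase that shuts off stress kinases, had levels of 10.92, 10.80 and 10.75 and 5.66, 6.29, 6.29 and 6.02 (-4.76 ± 0.24, adjusted p = 1.59e-09). Of 47 measured immediate early genes 29 fell and 1, Myc, rose, with a median of -1.0. Over all genes 17.0% fell and 11.9% rose. On the next brightest probe set 5 of 23 fell, against 11.6% of all genes with such a probe set, and the median was -0.15. The list's median level was 7.67, 6.64 and 6.42 on HSC replicates 1 to 3, between 4.94 and 5.33 on the PreMegE arrays and between 9.22 and 9.34 on the MPP arrays. HSC replicate 1 thus lay above the other HSC arrays and below all MPP arrays.

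The size of some of these falls depended on HSC replicate 1. Without it 24 immediate early genes fell and 2 rose, with a median of -0.70. Klf2, a quiescence factor of lymphocytes, was at 8.50, 5.72 and 5.23 on the HSC arrays and 4.07, 3.87, 3.63 and 3.51 on the PreMegE arrays (-2.71 ± 0.52, adjusted p = 9.35e-04), with a difference of -1.70 without HSC replicate 1 (adjusted p = 6.39e-05). Without HSC replicate 3 the difference in Klf2 was -3.34. The orphan receptor gene Nr4a1 was at 9.49, 7.09 and 6.73 and 6.45, 6.41, 5.74 and 6.24 (-1.56 ± 0.46, adjusted p = 0.0169), with a difference of -0.70 without that array (adjusted p = 0.0321). Without HSC replicate 1 the difference was -7.22 (adjusted p = 3.49e-08) for Fos and -4.71 (adjusted p = 4.77e-08) for Dusp1.

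The inducible heat shock genes had another pattern among the HSC arrays. Hspa1b, which encodes the stress-induced chaperone HSP70, had levels of 5.49, 11.15 and 11.56 across the HSC arrays, in order of replicate, and 4.60, 4.61, 4.87 and 4.50 across the PreMegE arrays (-4.76 ± 1.04, adjusted p = 0.00246). Hspa1a was at 3.92, 9.34 and 9.20 and 3.66, 3.72, 3.57 and 3.28 (-3.92 ± 0.93, adjusted p = 0.00446). For both genes HSC replicate 1 lay near the PreMegE arrays and replicates 2 and 3 far above them. Against HSC replicate 1 alone the differences were -0.85 (adjusted p = 0.473) for Hspa1b and -0.36 (adjusted p = 0.754) for Hspa1a. Without it they were -6.71 and -5.71. Without HSC replicate 2 they were -3.88 and -3.0, and without HSC replicate 3 -3.68 and -3.07. Dnajb1, an HSP70 cochaperone, fell evenly, from 12.56, 12.59 and 12.59 to 11.18, 11.29, 11.56 and 11.42 (-1.22 ± 0.13, adjusted p = 5.86e-06). Of 17 measured heat shock genes 6 fell and 1 rose, where 17.0% of all genes fell and 11.9% rose.

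The 250 bases before the start of Dusp1 are shown because they hold TGACGTCA, the full cAMP response element, which is known from many early response promoters. The window is chr17:26508473-26508722 on the minus strand of GRCm38.p6, and the match in capitals begins 143 bases before the start.
Dusp1: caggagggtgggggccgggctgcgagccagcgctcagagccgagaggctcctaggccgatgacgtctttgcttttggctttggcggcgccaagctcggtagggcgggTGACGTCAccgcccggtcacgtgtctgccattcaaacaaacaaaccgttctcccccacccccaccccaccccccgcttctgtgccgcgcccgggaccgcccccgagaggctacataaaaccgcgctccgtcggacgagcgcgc
TGACGTCA stood in 2.12% of all windows, in 0.901% of those of genes at least 4-fold higher and in 1.78% of those of genes at least 4-fold lower. The shares for TGACTCA, the AP-1 element, were 3.96%, 2.70% and 5.03%. Those for CCACACCC, which KLF factors recognise, were 3.53%, 5.41% and 4.44%. Those for CCGGAAG, the ETS element, were 10.1%, 16.2% and 5.33%.

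**Figure D3:**
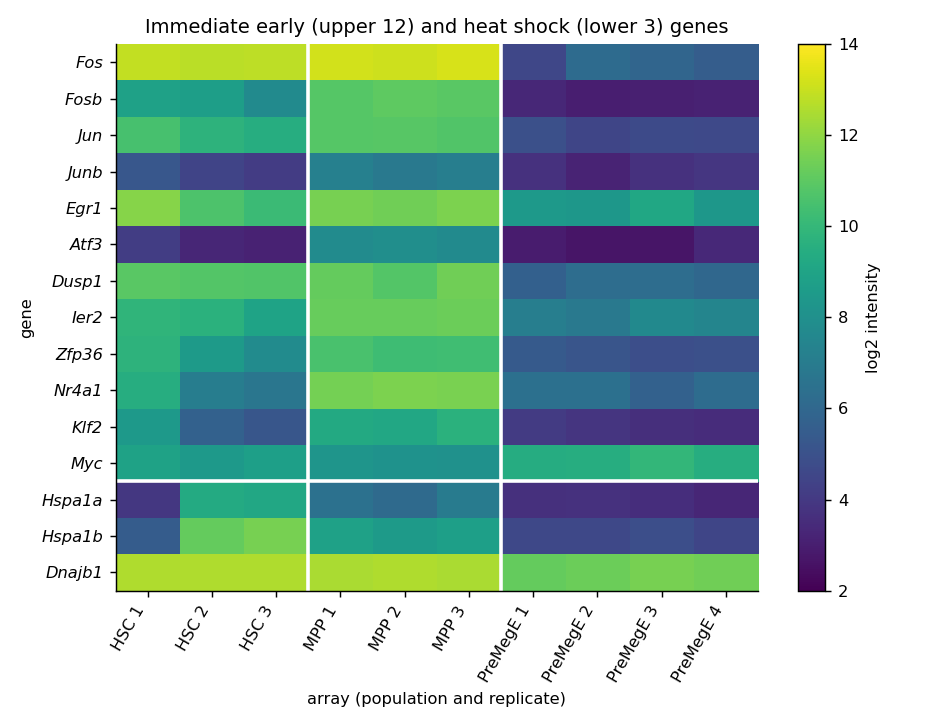
Log2 intensity (colour) of 12 immediate early and 3 heat shock genes (rows) on the HSC, MPP and PreMegE arrays (columns). Fos, Jun and Dusp1 are high on all HSC and MPP arrays and low on the PreMegE arrays, Klf2 and Nr4a1 are highest among HSC on replicate 1, and Hspa1a and Hspa1b are low on HSC replicate 1.

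The GATA network of megakaryocyte and erythroid factors did not move as a block. Of 53 measured members 17 rose and 14 fell, with a median of 0.17, where 11.9% of all genes rose and 17.0% fell. Gata1 had levels of 9.65, 9.35 and 9.44 in HSC and 10.48, 10.54, 10.96 and 10.65 in PreMegE cells (1.18 ± 0.14, adjusted p = 1.62e-05). Its level in MPP was 5.96 ± 0.05 (SD, n = 3), so that HSC lay nearer to PreMegE cells than to MPP. Klf1 was at 4.85 ± 0.10 (SD, n = 3) in MPP, below HSC (MPP minus HSC -2.98, adjusted p = 1.91e-07). Zfpm1, the GATA1 cofactor FOG1, went from 8.86, 8.74 and 8.92 to 9.57, 9.40, 10.17 and 9.55 (0.83 ± 0.17, adjusted p = 0.0015). Ldb1, which bridges GATA1 complexes, went from 6.86, 7.01 and 6.68 to 7.91, 7.85, 8.74 and 8.50 (1.40 ± 0.23, adjusted p = 2.47e-04). Tal1 (-0.13 ± 0.16, adjusted p = 0.613), its partner Lmo2 (0.24 ± 0.15, adjusted p = 0.273), Nfe2 (0.17 ± 0.16, adjusted p = 0.5) and Gfi1b (0.48 ± 0.18, adjusted p = 0.0541) were not called, although Gfi1b was called without PreMegE replicate 2 (0.57, adjusted p = 0.0336).

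Gata2, which precedes GATA1 on shared sites, was at 10.60, 10.54 and 10.49 in HSC and 10.87, 10.68, 10.97 and 10.81 in PreMegE cells and was not called (0.29 ± 0.13, adjusted p = 0.121), whereas its next brightest probe set was (1.28, adjusted p = 3.88e-04). Samd14, a GATA2-regulated gene that promotes Kit signalling, rose from 5.92, 6.12 and 6.29 to 8.17, 8.30, 8.83 and 8.76 (2.41 ± 0.23, adjusted p = 1.18e-06). Zbtb7a, a repressor of fetal globin genes, rose by 1.62 ± 0.14 (adjusted p = 6.64e-07). Sox6, another fetal globin repressor, fell from 7.41, 6.89 and 7.39 to 5.76, 4.85, 6.17 and 5.43 (-1.68 ± 0.24, adjusted p = 7.94e-05). Spi1, the myeloid factor PU.1 that opposes GATA1, was not called (-0.05 ± 0.20, adjusted p = 0.892).

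Many receptor and membrane genes of the red cell lineage were higher in PreMegE cells. Of 49 measured 23 rose and 6 fell, with a median of 0.48, where 11.9% of all genes rose and 17.0% fell. On the next brightest probe set, which 30 of them have, 5 rose and 5 fell with a median of -0.03. Among all genes with such a probe set 10.8% rose and 11.6% fell on it. The erythropoietin receptor Epor had levels of 5.87, 5.83 and 5.66 in HSC and 7.59, 6.85, 8.10 and 7.71 in PreMegE cells (1.78 ± 0.24, adjusted p = 3.36e-05). The Rh-associated glycoprotein Rhag had levels of 4.32, 5.23 and 4.81 and 8.08, 7.43, 8.18 and 7.73 (3.07 ± 0.22, adjusted p = 6.01e-08). Both genes were lower in MPP, at 4.51 ± 0.33 and 2.65 ± 0.17 (SD, n = 3), respectively. Car1, a carbonic anhydrase of red cells, rose from 9.57, 10.26 and 10.57 to 12.38, 12.60, 12.83 and 12.87 (2.54 ± 0.23, adjusted p = 6.70e-07), with an MPP level of 6.10 ± 0.38 (SD, n = 3). MPP lay below HSC for Car1 (MPP minus HSC -4.03, adjusted p = 3.62e-08) and for the water channel gene Aqp1 (-3.75, adjusted p = 2.53e-08), which rose further in PreMegE cells (1.85 ± 0.20, adjusted p = 5.17e-06).

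Further genes of the list encode blood group and transport proteins. Ermap, an erythroblast membrane protein, went from 7.07, 7.48 and 8.32 to 10.51, 11.05, 11.13 and 11.22 (3.35 ± 0.25, adjusted p = 1.23e-07) and Kel, the Kell antigen, from 4.17, 3.66 and 4.47 to 7.15, 6.97, 7.87 and 7.12 (3.18 ± 0.22, adjusted p = 4.89e-08). The HSC and PreMegE arrays of both did not overlap, like those of 31.6% of all genes. Mfsd2b, a lipid exporter of red cells and platelets, rose by 3.18 ± 0.18 (adjusted p = 4.33e-09), Tspo2, an erythroid cholesterol-binding protein, by 3.79 ± 0.18 (adjusted p = 9.38e-10) and Atp1b2, a sodium pump subunit, by 2.87 ± 0.17 (adjusted p = 1.02e-08). The transferrin receptor Tfrc rose by 0.77 ± 0.20 (adjusted p = 0.00722). On their next brightest probe sets Atp1b2 (0.16, adjusted p = 0.596) and Tfrc (-0.07, adjusted p = 0.858) were not called. Slc4a1, the band 3 anion exchanger, was at 2.92, 6.94 and 4.25 in HSC and 3.20, 3.27, 3.08 and 3.23 in PreMegE cells, with HSC replicate 2 highest (-1.51 ± 0.69, adjusted p = 0.124), and it was called lower without HSC replicate 1 (-2.40, adjusted p = 0.0122). Sptb, the erythrocyte beta-spectrin, was not called (0.07 ± 0.15, adjusted p = 0.789).

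Of 40 measured genes for globins, haem synthesis and iron handling, 10 rose and 5 fell, with a median of 0.10. Among all genes 11.9% rose and 17.0% fell. Alad, which makes porphobilinogen, went from 8.69, 8.33 and 8.76 to 9.72, 10.21, 10.62 and 10.12 (1.57 ± 0.20, adjusted p = 2.56e-05). Urod rose by 0.92 ± 0.15 (adjusted p = 1.99e-04) and Cpox by 1.18 ± 0.17 (adjusted p = 8.51e-05). Uros (-0.46 ± 0.18, adjusted p = 0.0794) and Ppox (-0.17 ± 0.33, adjusted p = 0.766) were not called, and without HSC replicate 3 Uros was called lower (-0.71, adjusted p = 0.00409). Slc40a1, the iron exporter ferroportin, rose from 5.93, 7.50 and 8.02 to 9.36, 9.30, 9.27 and 9.23 (2.14 ± 0.34, adjusted p = 2.05e-04), with HSC replicate 1 lowest, and by 1.53 without that array. Its next brightest probe set was not called (0.52, adjusted p = 0.114). Steap3, a ferrireductase for transferrin-bound iron, rose by 1.74 ± 0.20 (adjusted p = 7.13e-06) and Blvrb, biliverdin reductase B, by 2.54 ± 0.19 (adjusted p = 1.31e-07). Alas2, an erythroid enzyme of haem synthesis, was at 3.26, 5.53 and 3.49 in HSC and 3.37, 3.07, 3.22 and 3.07 in PreMegE cells. It was not called (adjusted p = 0.19). The alpha-globin gene Hba-a1 lay between 2.79 and 3.29 on all 7 arrays. Abcg2, a haem and drug exporter that marks stem cells, fell by 1.58 ± 0.15 (adjusted p = 1.71e-06).

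Megakaryocyte receptors were lower in PreMegE cells, unlike the erythroid genes. Of 36 measured platelet and megakaryocyte receptors and their signalling genes, 22 fell and 0 rose by limma. Over all genes 17.0% fell and 11.9% rose. The list had 1 gene higher at an unadjusted p under 0.05 and a median of -0.76. The integrin subunit Itgb3, partner of CD41, had levels of 8.58, 8.10 and 7.43 in HSC and 3.49, 4.01, 3.69 and 3.90 in PreMegE cells (-4.26 ± 0.28, adjusted p = 3.02e-08). Gp1bb, a subunit of the von Willebrand factor receptor, went from 6.83, 6.51 and 6.77 to 5.49, 5.13, 5.94 and 5.12 (-1.28 ± 0.19, adjusted p = 9.79e-05), and Gp9 from 7.25, 7.12 and 6.93 to 6.55, 6.44, 6.32 and 6.59 (-0.62 ± 0.14, adjusted p = 0.00283). The HSC and PreMegE arrays did not overlap for these 3 genes, nor for 31.6% of all genes. Gp1bb and Gp9 remained above their MPP levels (PreMegE minus MPP 2.19, adjusted p = 3.11e-07, and 0.81, adjusted p = 2.63e-04). The tetraspanin Cd9 fell by 2.16 ± 0.14 (adjusted p = 1.98e-08) and the ATP receptor P2rx1 by 1.86 ± 0.20 (adjusted p = 4.97e-06). Platelet receptor Gp6 was near the lower quartile of genes in both groups. The gates differ for CD41, and the next brightest probe sets of Itgb3 (-0.08, adjusted p = 0.836) and Gp1bb (-0.22, adjusted p = 0.336) were not called.

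Of 75 measured genes for platelet granules, the cytoskeleton and their regulators, 28 fell and 7 rose (11 after quantile and after cyclic loess normalisation), with a median of -0.13. By comparison 17.0% of all genes fell and 11.9% rose. Pf4, the platelet chemokine, had levels of 10.64, 10.88 and 11.09 in HSC and 6.71, 6.99, 6.70 and 6.41 in PreMegE cells (-4.16 ± 0.21, adjusted p = 1.39e-09). Its PreMegE level was close to that of MPP (PreMegE minus MPP -0.14 ± 0.21, adjusted p = 0.661). Vwf, which encodes von Willebrand factor and marks a platelet-biased share of HSC, went from 8.72, 8.46 and 8.52 to 6.87, 7.22, 7.88 and 7.21 (-1.27 ± 0.20, adjusted p = 1.69e-04) but stayed above MPP (3.14, adjusted p = 9.46e-09). Mylk, myosin light chain kinase, fell by 4.29 ± 0.24 (adjusted p = 4.16e-09), Gucy1a1, a guanylate cyclase subunit, by 3.91 ± 0.15 (adjusted p = 1.31e-10) and Tbxas1, thromboxane synthase, by 2.28 ± 0.16 (adjusted p = 7.12e-08). Rgs10, a regulator of G protein signalling, rose from 5.32, 5.97 and 5.19 to 8.16, 8.47, 7.93 and 8.16 (2.69 ± 0.19, adjusted p = 6.48e-08). In these bulk samples fewer cells that express a gene and less RNA per cell cannot be told apart.

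**Figure D4:**
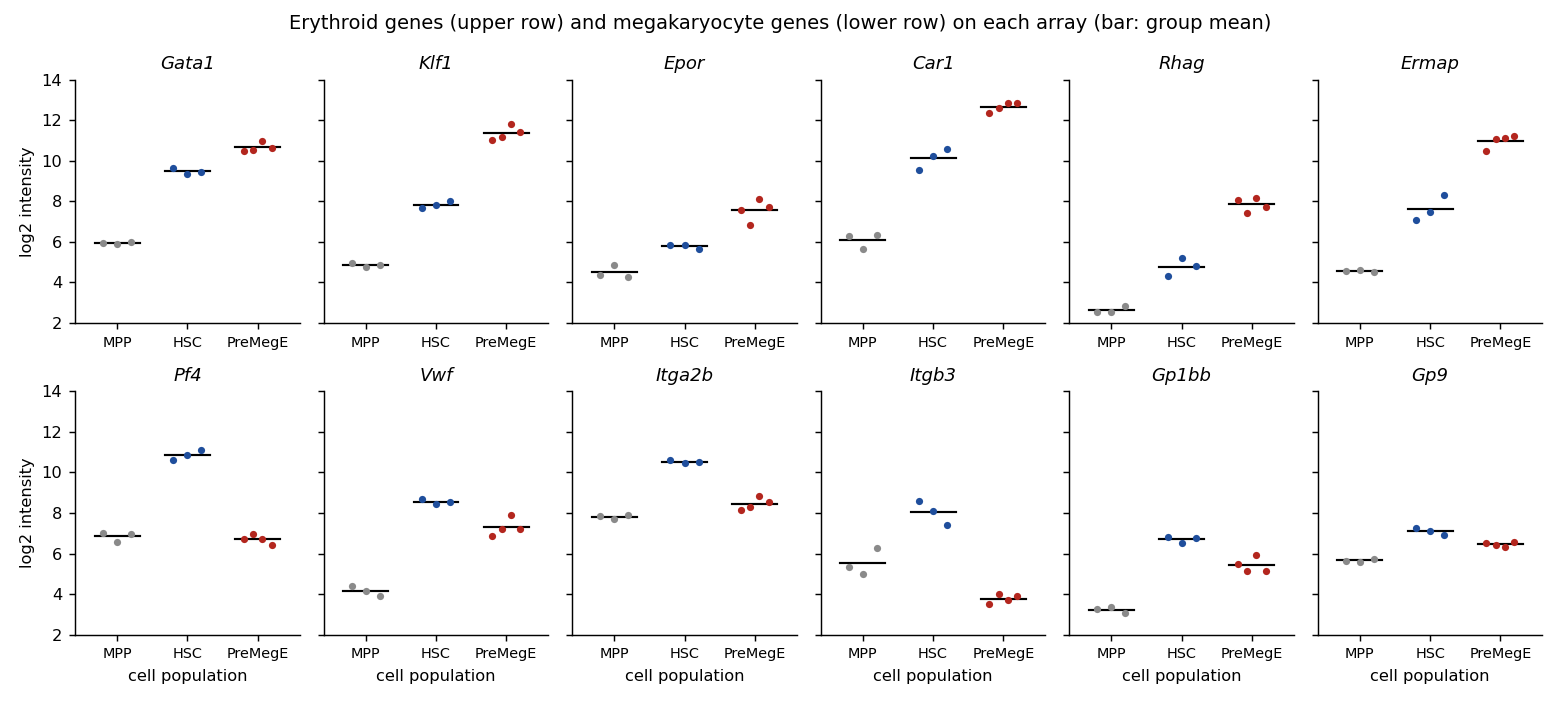
Log2 intensity (y axis) on each MPP, HSC and PreMegE array (points) with group means as bars, for 6 erythroid genes (upper row) and 6 megakaryocyte genes (lower row). Gata1, Klf1, Epor, Car1, Rhag and Ermap step up from MPP to HSC and again to PreMegE cells, whereas Pf4, Vwf, Itga2b, Itgb3, Gp1bb and Gp9 are highest in HSC.

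Of 37 measured granulocyte and monocyte genes 17 fell and 3 rose, where 17.0% of all genes fell and 11.9% rose. Prtn3, a granule protease, went from 10.46, 10.27 and 9.29 to 7.60, 6.29, 7.06 and 6.44 (-3.16 ± 0.30, adjusted p = 1.08e-06) and Lyz1, a lysozyme, from 12.34, 12.47 and 11.87 to 8.89, 8.42, 8.57 and 8.53 (-3.62 ± 0.16, adjusted p = 5.77e-10). The G-CSF receptor Csf3r fell by 1.69 ± 0.16 (adjusted p = 1.46e-06). Cst7, a leukocyte cystatin, rose by 2.69 ± 0.14 (adjusted p = 2.32e-09). The list's summed intensity was 9049 to 13488 on HSC arrays and 3755 to 4889 on PreMegE arrays. Without HSC replicate 2, the array with the most neutrophil signal, 14 of these genes fell and 3 rose, 20 erythroid receptor and membrane genes rose, and 20 megakaryocyte receptors fell. Of 38 lymphoid priming genes 15 fell and 4 rose, among them Lsp1, a leukocyte actin-binding protein, which fell by 2.64 ± 0.15 (adjusted p = 5.07e-09), and the MHC class II gene H2-Aa, at 8.94, 10.20 and 9.39 in HSC and 6.23, 5.72, 5.79 and 5.88 in PreMegE cells (-3.61 ± 0.23, adjusted p = 2.17e-08). Dntt, the nucleotidyl transferase of lymphoid progenitors, was at 11.92 ± 0.09 (SD, n = 3) in MPP, at 5.12, 5.57 and 4.59 in HSC and at 4.66, 4.14, 4.56 and 4.06 in PreMegE cells (-0.74 ± 0.22, adjusted p = 0.0192). This call was lost without HSC replicate 1 (-0.72, adjusted p = 0.0597) or 2 (-0.50, adjusted p = 0.12) and without PreMegE replicate 2 (-0.66, adjusted p = 0.0573) or 4 (-0.64, adjusted p = 0.0607). It was also lost under quantile normalisation (-0.59, adjusted p = 0.0591), with an offset of 16 before log2 (-0.46, adjusted p = 0.0571), with the mean of all probe sets (-0.36, adjusted p = 0.102), on the next brightest probe set (-0.28, adjusted p = 0.351), with the replicate block (-0.64, adjusted p = 0.0666) and against HSC replicate 1 alone (-0.77, adjusted p = 0.0659).

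Markers of mature cells that a sort could carry over are given beside the 28.9% of all genes called. Mature neutrophil genes had 1 rise and 2 falls among 18 measured, with a median of -0.03, with summed intensities of 1670 to 5726 on HSC arrays and 1117 to 2916 on PreMegE arrays. Without HSC replicate 2 there were 4 rises and 2 falls, with a median of 0.43, and without HSC replicate 1, HSC replicate 3 or PreMegE replicate 1 there were 2 falls and no rise. S100a8, a calprotectin subunit, was at 5.95, 9.79 and 6.10 in HSC and 9.44, 6.84, 7.33 and 7.89 in PreMegE cells (0.59 ± 0.75, adjusted p = 0.632), with HSC replicate 2 highest, and was called higher without that array (1.85, adjusted p = 0.0168), as was Camp (1.35, adjusted p = 0.0296). Of 22 macrophage genes 6 fell (4 without HSC replicate 2 or PreMegE replicate 2) and 1 rose, and their summed intensities were 1668 to 2273 on HSC arrays and 1947 to 3313 on PreMegE arrays. Of 24 stromal and endothelial genes 3 fell and 2 rose (5 without PreMegE replicate 3), with sums of 787 to 986 and 972 to 1168. T cell genes had 5 falls and 1 rise among 22, B cell genes 2 falls among 16, and NK genes 1 rise among 15, which was Nkg7, a granule protein (0.77 ± 0.15, adjusted p = 0.00115). Summed intensities were 616 to 699 against 443 to 539 for T cells, 422 to 474 against 329 to 364 for B cells and 455 to 555 against 664 to 768 for NK cells, in HSC and PreMegE cells respectively. Of their defining genes, Cd3e was at 5.47, 5.66 and 5.32 in HSC and 5.61, 5.57, 5.18 and 5.54 in PreMegE cells (-0.01 ± 0.16, adjusted p = 0.98), and the NK receptor Ncr1 (0.03 ± 0.17, adjusted p = 0.939) and the stromal genes Cxcl12 (0.03 ± 0.14, adjusted p = 0.916) and Col1a1 (0.16 ± 0.14, adjusted p = 0.491) lay close to the lower quartile of genes in both populations. Of 23 mast cell, basophil and eosinophil genes 2 rose and 3 fell. Cpa3, a mast cell protease that early megakaryocyte and erythroid progenitors also express, went from 5.56, 6.01 and 6.35 to 7.58, 7.51, 8.12 and 7.98 (1.83 ± 0.20, adjusted p = 5.99e-06).

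More cell cycle genes fell than rose in PreMegE cells. Of 52 measured genes of mitosis 27 fell, 2 rose and 23 were not called, with a median of -0.60. For this list and that of DNA replication, the shares over all genes were 17.0% lower and 11.9% higher. The mitotic kinase gene Aurkb had levels of 8.61, 8.63 and 8.98 in HSC and 6.13, 6.58, 6.68 and 6.29 in PreMegE cells (-2.31 ± 0.16, adjusted p = 5.75e-08), and Plk1 had 7.96, 7.82 and 7.68 and 6.32, 6.10, 6.56 and 6.52 (-1.44 ± 0.17, adjusted p = 1.32e-05). The groups did not overlap for either kinase, against 31.6% of all genes without overlap. Cdk1, the kinase that starts mitosis, fell by 1.14 ± 0.17 (adjusted p = 8.42e-05), Incenp, an Aurora B partner, by 1.63 ± 0.15 (adjusted p = 8.12e-07) and Prc1, a midzone protein, by 1.41 ± 0.18 (adjusted p = 2.14e-05). The proliferation marker Mki67 was at 10.78, 10.79 and 11.22 and 10.33, 11.26, 11.26 and 11.14 and was not called (0.07 ± 0.21, adjusted p = 0.861). Of 56 measured genes of DNA replication 28 fell, 25 were not called and 3 rose (5 after quantile normalisation and 6 without HSC replicate 3), with a median of -0.67. The helicase subunits Mcm2 (-0.01 ± 0.15, adjusted p = 0.977), Mcm3 (-0.17 ± 0.16, adjusted p = 0.495) and Mcm6 (-0.34 ± 0.20, adjusted p = 0.24) were not called, while Mcm5 fell from 12.47, 12.36 and 12.43 to 11.36, 11.44, 11.44 and 11.36 (-1.02 ± 0.12, adjusted p = 1.00e-05). Tk1, thymidine kinase, fell by 1.93 ± 0.18 (adjusted p = 1.24e-06), Rrm2, a ribonucleotide reductase subunit, by 1.44 ± 0.19 (adjusted p = 3.53e-05) and Ung, a uracil glycosylase, by 1.82 ± 0.22 (adjusted p = 1.14e-05). The next brightest probe set of Aurka, whose brightest fell by 2.33 ± 0.19 (adjusted p = 2.73e-07), differed by 0.15 (adjusted p = 0.537).

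Inhibitors and regulators of cell cycle entry moved both ways, with 18 of 44 lower and 9 higher (5 higher without HSC replicate 2). Over all genes 17.0% were lower and 11.9% higher. Besides Cdkn1c and Ndn, the INK4 inhibitor gene Cdkn2c fell by 0.93 ± 0.15 (adjusted p = 2.39e-04), and cyclin D1 (Ccnd1) fell from 7.55, 7.63 and 7.24 to 6.11, 6.35, 5.48 and 6.19 (-1.45 ± 0.22, adjusted p = 1.24e-04). The antiproliferative gene Btg1 rose from 8.31, 8.64 and 9.12 to 11.05, 10.56, 10.67 and 10.24 (1.94 ± 0.22, adjusted p = 6.04e-06) and the noncoding RNA Gas5 from 10.38, 10.21 and 10.06 to 11.66, 11.41, 11.18 and 11.71 (1.27 ± 0.15, adjusted p = 1.43e-05). Btg1 was not called with the mean of all its probe sets (0.34, adjusted p = 0.11) and Ccnd1 not on its next brightest (-0.01, adjusted p = 0.989). Cdkn1a, the inhibitor p21, was not called (0.03 ± 0.30, adjusted p = 0.957) but was higher in MPP, at 9.50 ± 0.18 (SD, n = 3).

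Genes for ribosome assembly rose more often than they fell. Of 59 measured 26 were higher and 6 lower, with a median of 0.36. For the 2 lists of this paragraph, the shares over all genes were 11.9% higher and 17.0% lower. Ltv1, a factor of small subunit maturation, had levels of 6.19, 5.91 and 6.21 in HSC and 7.59, 7.82, 8.02 and 7.91 in PreMegE cells (1.73 ± 0.15, adjusted p = 4.81e-07), and the nucleolar helicase Ddx21 had 8.13, 7.99 and 8.20 and 9.23, 9.29, 9.45 and 9.24 (1.19 ± 0.14, adjusted p = 8.34e-06). Every PreMegE array lay above every HSC array for both genes, while 31.6% of all genes had no overlap in one direction or the other. Nop56 of the methylation complex rose by 0.98 ± 0.19 (adjusted p = 7.79e-04) and nucleophosmin (Npm1) by 0.72 ± 0.15 (adjusted p = 0.00142). Fibrillarin (Fbl), which acts with Nop56, fell from 10.95, 11.09 and 10.80 to 9.81, 9.63, 10.29 and 9.99 (-1.01 ± 0.17, adjusted p = 2.86e-04). Nolc1, a nucleolar chaperone, rose by 1.49 ± 0.16 on its brightest probe set (adjusted p = 3.82e-06) and was lower on the next brightest (-1.15, adjusted p = 0.00749). On the next brightest probe set 16 of 40 ribosome assembly genes rose and 5 fell. Among all genes with such a probe set 10.8% rose and 11.6% fell on it. Mitochondrial ribosome and translation genes had 30 rises and 8 falls among 76 (7 of each among 43 on the next brightest probe set, with a median of -0.01, and 5 falls after quantile and cyclic loess normalisation and without HSC replicate 1), with a median of 0.27. Mrps22 rose from 6.15, 5.83 and 6.43 to 8.15, 8.07, 7.86 and 8.26 (1.95 ± 0.16, adjusted p = 2.49e-07) and Mrpl52 from 9.72, 9.79 and 9.70 to 11.62, 11.60, 10.80 and 11.14 (1.55 ± 0.19, adjusted p = 1.68e-05).

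Energy genes moved both ways. Of 79 measured respiratory chain and citrate cycle genes 19 rose and 15 fell, with a median of 0.09. Of all genes 11.9% rose and 17.0% fell. Ndufa6, a complex I subunit, went from 7.78, 7.50 and 7.74 to 9.71, 9.65, 9.19 and 9.46 (1.83 ± 0.17, adjusted p = 1.00e-06) and cytochrome c (Cycs) from 10.46, 10.38 and 10.66 to 11.74, 11.86, 11.61 and 11.49 (1.18 ± 0.15, adjusted p = 2.20e-05). Atp5b, an ATP synthase subunit, fell by 0.77 ± 0.19 (adjusted p = 0.00517). Of 31 measured genes of glycolysis and the hypoxia response 17 fell and 3 rose, with a median of -0.74. Pkm, pyruvate kinase, had levels of 9.27, 9.33 and 9.05 in HSC and 6.42, 5.96, 7.14 and 6.67 in PreMegE cells (-2.67 ± 0.21, adjusted p = 1.94e-07). Phosphoglycerate kinase (Pgk1) went from 12.20, 12.49 and 12.34 to 11.17, 11.02, 11.11 and 10.90 (-1.29 ± 0.13, adjusted p = 2.28e-06). Hexokinase 2 (Hk2) fell by 1.33 ± 0.18 (adjusted p = 3.99e-05) and Pdk1, which keeps pyruvate out of mitochondria, by 1.32 ± 0.18 (adjusted p = 3.50e-05). Lactate dehydrogenase A (Ldha) was not called (-0.19 ± 0.13, adjusted p = 0.323), nor was Pdk1 on its next brightest probe set (-0.43, adjusted p = 0.102).

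Of 26 measured cholesterol genes 11 fell and 1 rose, among them Cyp51, a sterol demethylase, from 7.51, 7.38 and 7.27 to 5.18, 5.47, 5.22 and 6.08 (-1.90 ± 0.21, adjusted p = 5.07e-06), and squalene epoxidase (Sqle), which fell by 1.0 ± 0.19 (adjusted p = 7.79e-04). Of 32 nucleotide and one-carbon genes 9 fell and 5 rose (3 without HSC replicate 1). Mthfd2, a mitochondrial folate enzyme, fell from 8.23, 8.0 and 8.11 to 6.56, 6.54, 6.42 and 6.72 (-1.55 ± 0.14, adjusted p = 1.02e-06). Of 28 genes of the MYC network 7 rose and 5 fell. For the lists of this paragraph, the shares over all genes were 11.9% higher and 17.0% lower.

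More cytokine receptor genes fell than rose on their brightest probe sets. Of 52 measured 19 fell and 5 rose, while on the next brightest probe set 3 of 36 fell and 5 rose. For this list and those below, 17.0% of all genes fell and 11.9% rose on the brightest probe set. On the next brightest, 11.6% of the genes that have it fell and 10.8% rose. Il6st, the shared gp130 chain, fell from 5.66, 5.56 and 5.63 to 3.54, 3.11, 3.49 and 3.68 (-2.16 ± 0.18, adjusted p = 3.34e-07), the shared beta chains Csf2rb by 1.70 ± 0.21 (adjusted p = 2.02e-05) and Csf2rb2 by 1.78 ± 0.29 (adjusted p = 2.44e-04), and the growth hormone receptor Ghr by 2.14 ± 0.29 (adjusted p = 3.96e-05). On their next brightest probe sets Il6st (0.16, adjusted p = 0.523) and Csf2rb (-0.39, adjusted p = 0.266) were not called. The PDGF receptor Pdgfrb rose, from 6.09, 6.70 and 6.86 to 9.02, 8.78, 9.35 and 8.53 (2.37 ± 0.21, adjusted p = 7.92e-07). Among 27 survival genes of the BCL2 and IAP families and their regulators 10 fell (5 with the mean of all probe sets, 6 without HSC replicate 1 and 6 without PreMegE replicate 2) and 6 rose. Bcl2 fell by 0.94 ± 0.18 (adjusted p = 7.61e-04) and Bcl2l1 by 0.88 ± 0.16 (adjusted p = 5.00e-04), while neither was called on its next brightest probe set (0.20, adjusted p = 0.866, and 0.01, adjusted p = 0.976), and Mcl1 was not called (0.22 ± 0.13, adjusted p = 0.226). The survival kinase gene Pim1 fell from 11.57, 10.58 and 10.53 to 8.58, 8.35, 8.68 and 8.33 (-2.41 ± 0.22, adjusted p = 9.78e-07), and Apaf1, which nucleates the apoptosome, rose from 7.31, 6.54 and 7.45 to 8.21, 8.69, 9.10 and 8.89 (1.63 ± 0.24, adjusted p = 8.18e-05). The next brightest probe sets of Pim1 (-0.12, adjusted p = 0.798) and Apaf1 (0.14, adjusted p = 0.629) were not called. Of 47 interferon and MHC genes 20 fell and 9 rose (4 without HSC replicate 2). Ifitm1, an antiviral membrane protein, fell from 11.48, 11.17 and 11.08 to 8.78, 8.38, 8.51 and 8.59 (-2.68 ± 0.16, adjusted p = 1.28e-08) and Irgm1, an interferon-inducible GTPase, rose from 8.01, 7.60 and 8.17 to 9.47, 9.71, 9.93 and 9.80 (1.80 ± 0.18, adjusted p = 2.40e-06).

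The list counts depend on the probe set read. Over the 9010 genes with a next brightest probe set 10.8% were called higher and 11.6% lower on it. On that probe set 8 of 23 stem cell regulators fell, as did 9 of 27 stem cell surface and niche genes, 13 of 25 other stem cell genes, 5 of 15 megakaryocyte receptors (2 rose), 10 of 48 platelet granule and cytoskeleton genes, 5 of 14 granulocyte and monocyte genes, 2 of 19 lymphoid priming genes, 14 of 35 mitosis genes, 13 of 42 replication genes and 7 of 19 glycolysis and hypoxia genes. Of 33 GATA network genes 9 rose and 4 fell, of 52 respiratory chain genes 13 rose and 4 fell, of 32 cell cycle entry genes 7 rose and 6 fell, of 19 survival genes 3 rose and 1 fell, and of 21 interferon and MHC genes 1 rose and 5 fell.

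**Figure D5:**
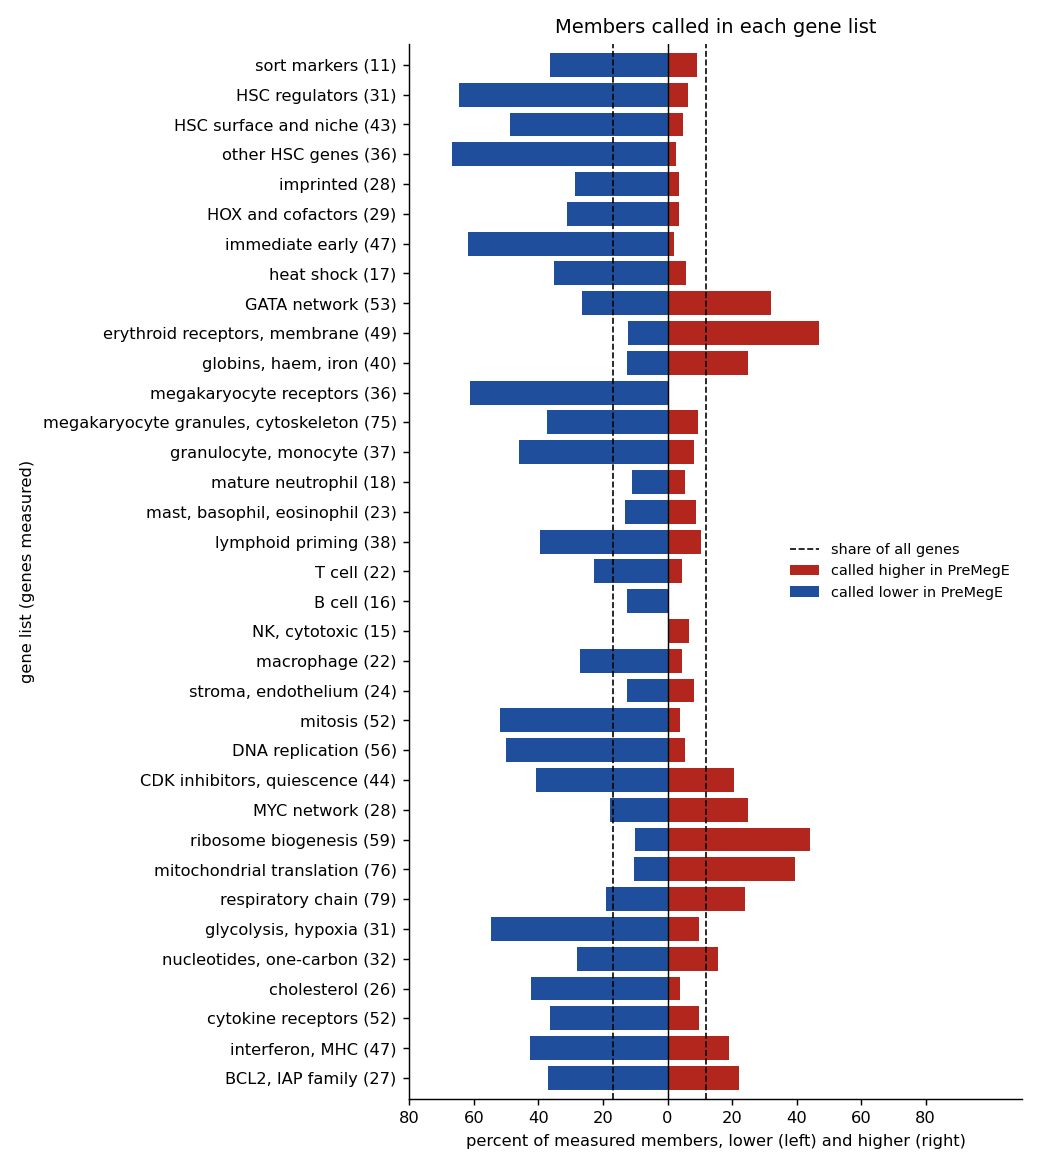
Share of measured members called higher (red, to the right) or lower (blue, to the left) in PreMegE cells for each of 35 gene lists, in percent, with the number measured in brackets. Dashed lines mark the 11.9% and 17.0% of all genes called in each direction; the erythroid receptor and membrane list reaches far past the right line and the stem cell and immediate early lists past the left line.

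The largest rises among genes whose HSC and PreMegE arrays did not overlap, 12 by the rule for names, were mostly outside the lists. Gdpd3, a glycerophosphodiester phosphodiesterase, had levels of 4.46, 4.11 and 3.83 in HSC and 9.85, 9.73, 10.11 and 10.04 in PreMegE cells, a 55.8-fold difference (5.80 ± 0.25, adjusted p = 3.05e-10). St8sia6, a sialyltransferase, went from 4.65, 5.17 and 6.37 to 10.51, 10.43, 11.30 and 10.57 (5.31 ± 0.34, adjusted p = 1.98e-08). Zg16, a zymogen granule lectin, went from 6.13, 6.46 and 6.19 to 10.56, 10.62, 9.97 and 10.65, 18.2-fold (4.19 ± 0.17, adjusted p = 2.37e-10), and Ces2g, a carboxylesterase, from 6.12, 5.86 and 5.86 to 10.18, 10.07, 9.72 and 10.04, 16.6-fold (4.06 ± 0.15, adjusted p = 9.96e-11). MPP levels of these 4 genes were 3.92 ± 0.59, 3.18 ± 0.12, 4.36 ± 0.13 and 3.44 ± 0.19 (SD, n = 3), so that St8sia6, Zg16 and Ces2g were higher in HSC than in MPP (MPP minus HSC -2.22, -1.90 and -2.50, adjusted p = 7.26e-04, 6.96e-06 and 9.53e-08). Rec114, a meiotic recombination gene, Scin, the actin-severing scinderin, Dnah12, an axonemal dynein, Clec4d, a myeloid lectin, Pdzph1 and Ccdc68 completed the 12 largest with Tspo2 and Klf1, at 4.35 ± 0.22 for Rec114 down to 3.54 ± 0.19 for Klf1. Rec114 and Pdzph1 had HSC means under the lower quartile of genes, and the next brightest probe set of Rec114 differed by 0.56 (adjusted p = 0.0123).

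The 12 largest falls by the same rule were Fos, Fscn1, Mmrn1, Tgm2, Mecom, Procr, Fosb, Hlf, Jun, Zfp467, Dusp1 and Hspa1b. Of them 5 belonged to the immediate early and heat shock lists and 6 to the stem cell lists. The lists were chosen with earlier results of these data known, so this membership is no independent evidence. Zfp467, a zinc finger protein, went from 8.41, 8.92 and 8.34 in HSC to 3.18, 3.74, 3.73 and 3.89 in PreMegE cells (-4.92 ± 0.19, adjusted p = 1.13e-10), with 7.50 ± 0.21 (SD, n = 3) in MPP. Fosb, another AP-1 subunit, went from 8.87, 8.72 and 7.73 to 3.33, 3.01, 3.05 and 3.14 (-5.31 ± 0.22, adjusted p = 2.68e-10). PreMegE means of Fscn1, Procr and Fosb lay under the lower quartile of genes.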

How the data were processed

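RNA of sorted mouse cells had been hybridised to 12 Affymetrix Mouse 430 2.0 arrays. The authors deposited 1 table of probe set intensity values on a linear scale, made by RMA per the submitters' processing notes, with the version not given in the sources used here. RMA is known to correct background, equalise the arrays' distributions and summarise probes. The deposited distributions still differed, with upper quartiles of probe set values from 63.4 (PreMegE replicate 1) to 80.7 (PreMegE replicate 3). Log2 of these values was taken. Of 45101 probe sets, 34945 had a single gene symbol, 932 had several and 9160 none; 64 controls were left out. Each of 18193 genes was read from its brightest probe set by the mean of all 12 arrays, and 9010 genes had another.

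All 12 arrays entered one limma fit (limma 3.58.1, R 4.3.3; lmFit and eBayes, two-sided, no covariate), with contrasts of PreMegE minus HSC, PreMegE minus MPP and MPP minus HSC. P-values were adjusted by Benjamini-Hochberg over all genes, and a gene was called under 0.05. The fit was tested on simulated data. Arrays carry no read depth, and their number limits the precision.

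The members and the 36 gene lists (1207 of 1308 genes measured) were chosen with earlier results of these data known, so lists are described by counts and medians. Genes named are the 12 largest rises and falls among called genes whose arrays do not overlap, clone and model names aside, the core genes of each list, up to 6 further called members per list with the largest change, Klf1, Mecom and Procr. PreMegE replicate 4 is described as replicate 3 in another label, so both were also averaged. Promoters came from RefSeq (GRCm38.p6). Alternatives covered normalisation, an offset of 16 before log2, the filter, the probe set, the arrays fitted, moderation, a replicate block and leaving out arrays.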

Additional observations from a re-analysis of the deposited data

Results flagged for a closer look

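Among the 4 PreMegE arrays, 12 of the 168 genes named had 1 array farther from the others than Dixon's critical value allows, where chance gives about 1 in 20. HSC, with 3 arrays, were not tested in this way.

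Replicate 3 was the array that stood apart for 7 of these genes. Over all its probe sets the upper quartile was 80.7, against 63.4 to 66.7 on the other PreMegE arrays. Its lower quartile was 7.64, against 8.39 to 8.57. The part of this wider distribution in the values below was not tested. Replicate 3 was the highest for Bcl2 (8.22 against 7.87 to 7.90 on the others), Myc (9.94 against 9.43 to 9.50), Mycn (9.73 against 8.86 to 9.01), Scin (10.31 against 9.71 to 9.80) and St8sia6 (11.30 against 10.43 to 10.57). It was the lowest for Zg16 (9.97 against 10.56 to 10.65) and Cst7 (8.31 against 8.58 to 8.63).

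Replicate 1 was the lowest for the cell cycle genes Mki67 (10.33 against 11.14 to 11.26) and Cdk1 (7.24 against 7.58 to 7.63) and the highest for Tie1 (4.45 against 3.92 to 4.0). Replicate 2 was the lowest for Spi1 (5.32 against 5.61 to 5.65) and the highest for Csf2rb (4.51 against 4.13 to 4.18).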

How the results depend on the processing

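Counts of calls between PreMegE cells and HSC ranged from 4264 to 5436 when 1 array was left out (1733 to 2186 higher and 2524 to 3250 lower) and from 5312 to 6412 between PreMegE cells and MPP, against 5255, 2167, 3088 and 6004. With the next brightest probe set, which only 9010 genes have, they were 2020 (977 higher and 1043 lower) and 2611. Against HSC replicate 1 alone, which is then assumed to vary like the other groups, 3395 genes were called between PreMegE cells and HSC, 1267 of them higher. The remaining alternatives gave 4728 to 5711 and 5661 to 6403. Replicate numbers are shared by the labels. Deviations of same-numbered arrays correlated at -0.053, 0.082 and 0.413, and those of HSC replicate 2 and PreMegE replicate 1 at 0.439. With so few arrays these values cannot decide whether the numbers pair the arrays. With the replicate block 5034 genes were called, and of the genes named only Dntt lost its call.

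Among named genes called in either fit, the direction changed under 2 of the alternatives; genes called in neither, with differences near 0, also changed sign under others. With the next brightest probe set Nolc1 was at -1.15 and called lower, Kit at 1.03 and Slamf1 at 0.79 were called higher, and Angpt1 (0.43), Aurka (0.15), Bcl2 (0.20), Bcl2l1 (0.012), Eif2s3y (0.0064), Il6st (0.16), Kdm5d (0.090), Meg3 (0.091) and Tfrc (-0.068) were not called; the cause was not tested. Of 89 named genes with such a probe set, 56 kept their side of the threshold and their direction. Another 4 changed sign without being called in either fit. A further 15 lost their call with the direction kept, besides the genes from Angpt1 to Tfrc above, which lost it and changed direction. Against HSC replicate 1 alone Xist (-0.24), Eif2s3y (0.19) and Kdm5d (0.088) turned, by construction, since the other 2 HSC arrays carry the Y-linked signal. Quantile normalisation moved the median of all genes from -0.01 to 0.03.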
